A study of Mus musculus with 4 samples.

Results

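Livers exposed to the PPARα antagonist GW6471, with and without a diet of conjugated linoleic acid (CLA), were compared gene by gene. The CLA+GW6471 library was set against the GW6471 library. The genes were those with a mean FPKM (a read count divided by transcript length and library depth) of at least 1 over the 4 libraries of the study, which were 10355 of the 15500 genes in the table. The ratio of a gene is the log2 of its FPKM + 0.1 in CLA+GW6471 over that in GW6471, so a negative ratio is a lower level with CLA. Where the levels of all 4 libraries are given, "with both" is the CLA+GW6471 library, and a pair of levels is GW6471 first and CLA+GW6471 second. Gm13154, with a mean FPKM of 1.0 and a ratio of -0.27, was the gene just inside the filter, and Zfp934, with a mean FPKM of 0.9975 and a ratio of 0.33, was the one just outside.

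The animals were male wild-type mice of the outbred Kunming stock, 5 weeks old at purchase, kept on chow for 1 week before randomization. The GW6471 group ate chow with 1.5% (w/w) linoleic acid (LA), the common unconjugated fatty acid, and had daily intraperitoneal GW6471 at 20 mg per kg of body weight. The CLA+GW6471 group ate chow with 1.5% CLA in place of LA and was also injected with GW6471, and the dose is stated with the GW6471 group. The CLA was an equal mixture of the c9t11 and t10c12 isomers, and livers were taken after 28 days. The other conditions were the LA diet without GW6471 (Vehicle) and the CLA diet without GW6471 (CLA). Groups had 6 mice, but each condition had 1 library, and whether RNA of several mice was pooled is not stated. The RNA-seq methods speak of liver tissue and describe no libraries from mice given GW6471, so the condition of those libraries rests on the labels alone.

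With 1 library per condition, no difference between conditions could be tested, and the values below describe these libraries. The only error available was counting error. The reads behind a gene were estimated from its FPKM, its transcript length and a depth of 19280000 reads in CLA+GW6471 and 19080000 in GW6471, and a 95% exact Clopper-Pearson interval of the ratio was computed from them for the 9762 genes with an annotated length (94.3%). This counting interval is approximate and leaves out all differences between animals, which were not measured. The interval left out equal levels for 2834 genes on the higher side and 2959 on the lower side, 59.3% of the genes with a length. At this depth counting error was thus smaller than most of the differences between the libraries.

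PPARα is a nuclear receptor that fatty acids activate, and in hepatocytes it raises genes of fatty acid transport and oxidation in mitochondria and peroxisomes. GW6471 is a ligand that holds the receptor in its inactive form. The SREBP factors act on sterol and fatty acid synthesis when membrane sterol is low, and the HIF factors act on glycolysis and mitochondrial removal when oxygen is low. CLA isomers are known for lowering body fat and, in mice, for enlarging the liver and filling it with lipid.

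Markers of the tissue were checked first. Of 17 hepatocyte markers in the table, 7 passed the filter. Alb, the plasma protein albumin, had 1067.32 FPKM in GW6471 and 620.17 in CLA+GW6471, and Apoe and Trf, an apolipoprotein and the iron carrier transferrin, had 1761.77 and 1241.57 FPKM and 316.42 and 219.56 FPKM. Other defining hepatocyte genes were at or near 0 in all 4 libraries, among them Ttr (at most 0.04 FPKM), Cps1 (at most 0.03), Cyp2e1 (at most 0.10) and Fga (at most 0.11). Apoa1, the main protein of high-density lipoprotein, had 0.52 FPKM in GW6471 and 0.41 in CLA+GW6471. The epithelial keratins Krt18 and Krt8 were abundant, at 1170.68 and 1216.02 FPKM and at 403.01 and 466.21 FPKM, while the bile duct keratin Krt7 had 18.43 and 18.84 FPKM. The most abundant gene of every library was Sprr1a, a protein of the cornified envelope of squamous epithelium, at 18795.15 FPKM in GW6471 and 26115.83 in CLA+GW6471, or 3.78% and 5.02% of the FPKM sum. The libraries thus lacked a large part of the hepatocyte markers that the liver label calls for.

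Most markers of the non-epithelial cells of a liver were low, except Dcn, Vim and Cd68. Among macrophage markers Cd68, a lysosomal protein, was at 24.87 and 24.37 FPKM in GW6471 and CLA+GW6471, whereas Csf1r, Lyz2 and Emr1 stayed under 1 FPKM in every library, and 1 of 5 listed markers passed the filter. None of 5 lymphocyte markers passed (Cd79a, Cd8a, Cd79b and the pan-leukocyte Ptprc were at most 0.15 FPKM), none of 4 neutrophil markers (Csf3r, S100a9 and Elane at most 0.10), and none of 7 endothelial markers. Stab1 and Pecam1 were the highest endothelial markers, with at most 1.19 and 0.93 FPKM, and Cdh5, Kdr and Eng were lower. Of 8 stellate cell and fibroblast markers, Dcn (1349.52 and 1147.76 FPKM) and Vim (63.07 and 43.31) passed, while Des, Col1a1 and Col3a1 did not. The erythroid markers Hba-a1 (1.87 and 1.89 FPKM), Hba-a2 and Alas2, the adipocyte markers Fabp4 (5.68 and 4.47), Retn and Adipoq, and the muscle and pancreas markers Cela1 (4.80 and 3.88), Mylpf (1.46 and 1.63), Tnnt3 and Acta1 were low. Fewer cells of a type and less RNA of it per cell cannot be told apart in bulk libraries, here and in all that follows.

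The hepatocyte markers moved with the contrast. All 7 that passed were lower in CLA+GW6471, with a median ratio of -0.53 (-0.23 with no filter), and the summed level of all 17 was 3262.4 FPKM in GW6471 and 2142.95 in CLA+GW6471, beside 2290.02 in Vehicle and 4144.65 in CLA. The part of this in the results below was not tested. The 12 liver-enriched transcription factors that passed had a median of 0.20 and 9 were higher, for example Hnf4a (47.23 and 51.84 FPKM), Foxa2 (46.23 and 54.35) and Cebpb (130.0 and 148.82). Cholangiocyte and epithelial markers had a median of 0.08 over 10 genes, in which Spp1, the secreted protein osteopontin, was the lowest at -0.58 (452.82 and 301.97 FPKM). Of the 10 genes 8 were higher, and the tight junction proteins Cldn4 (55.38 and 90.3 FPKM) and Cldn3 (60.72 and 90.95) had the highest ratios, 0.70 and 0.58.

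Some targets of PPARα, the receptor that GW6471 is known to block, were higher in both GW6471 libraries. Pdk4, the kinase that turns off pyruvate dehydrogenase, had 1.17 FPKM in Vehicle, 1.87 with CLA, 17.99 with GW6471 and 15.56 with both. Cpt1a, which admits long-chain fatty acids to mitochondria, had 11.34, 15.98, 46.04 and 43.13 FPKM in the same order. Acot1, a cytosolic acyl-CoA thioesterase with near-identical copies, had 2.34, 4.01, 15.04 and 10.86 FPKM. Each of these genes was thus more than 2-fold higher in either library labelled GW6471 than in either one without it. Over the 22 PPARα targets that passed the filter, the median ratio to Vehicle was 0.27 in GW6471 (18 higher), 0.17 in CLA+GW6471 (14 higher) and 0.35 in CLA (15 higher), which had no GW6471. The summed level of the listed targets was 699.32 FPKM in Vehicle, 808.18 with CLA, 1023.6 with GW6471 and 1026.32 with both, so the sum was highest in the libraries labelled GW6471 and the median in CLA. Over all genes the median of GW6471 against Vehicle was -0.004.

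Over all 10355 genes the median ratio was 0.0041 with an SD across genes of 0.329, and 5223 genes were higher, 5106 lower and 26 equal. At least 2-fold higher were 37 genes (0.357%) and at least 2-fold lower 83 genes (0.802%). At 1.5-fold, 291 genes (2.81%) were higher and 402 (3.88%) lower. Most of the 2-fold differences lay at low levels, since 28 of the 37 higher and 54 of the 83 lower genes had a mean FPKM under 5. Gm3448 was listed at 0 in GW6471 and 1.73 FPKM in CLA+GW6471, so no fold is given for it, though it counts among the 37.

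**Figure D1:**
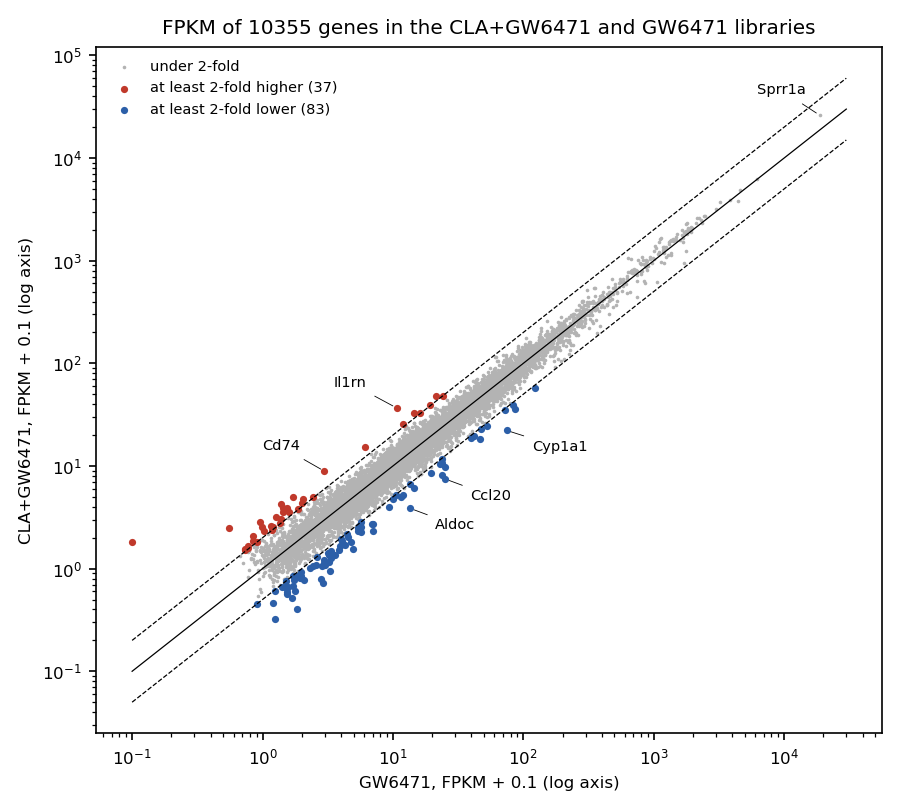
FPKM + 0.1 of the 10355 genes in the GW6471 library (horizontal, log axis) and in the CLA+GW6471 library (vertical, log axis), 1 point per gene, with lines at equal levels (solid) and at 2-fold (dashed). The 83 genes at least 2-fold lower in CLA+GW6471 and the 37 at least 2-fold higher lie mostly at low FPKM, and Sprr1a is the most abundant gene at 18795.15 and 26115.83 FPKM.

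At a mean FPKM of at least 5, the genes with the smallest ratio included Aldoc, Ccl20, Cyp1a1, Acat2, Akr1c18, Arrdc3, Dhcr7, Bnip3, Fgb, Gsta4 and Tcp11l2. Aldoc, the brain-type fructose bisphosphate aldolase of glycolysis, had 4.98 FPKM in Vehicle, 25.7 with CLA, 13.51 with GW6471 and 3.76 with both, a ratio of -1.82 (counting interval -2.08 to -1.62). Ccl20, the chemokine that draws CCR6-bearing lymphocytes, had 9.57, 30.65, 25.17 and 7.36 FPKM in that order, a ratio of -1.76. Cyp1a1, the cytochrome P450 that metabolizes aromatic hydrocarbons and the best known target of the aryl hydrocarbon receptor, had 22.08, 76.07, 74.74 and 22.08 FPKM, a ratio of -1.75. In Aldoc, Ccl20 and Cyp1a1 the CLA+GW6471 library was at or below Vehicle and the GW6471 library stood beside or below CLA.

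Fgb, the beta chain of fibrinogen, had 45.22 FPKM in Vehicle, 138.03 with CLA, 86.43 with GW6471 and 35.68 with both. Arrdc3, an arrestin-domain protein, had 2.95, 9.31, 6.77 and 2.61 FPKM. The same order, CLA above GW6471 and CLA+GW6471 lowest, held in Akr1c18 (6.93 FPKM in GW6471 and 2.63 in CLA+GW6471), in Gsta4 (14.46 and 5.97) and in Tcp11l2 (11.46 and 4.87). Akr1c18, a steroid dehydrogenase, and Gsta4, a glutathione transferase, belong to families of near-identical genes, so their values are uncertain.

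The genes with the largest ratio at that level included Il1rn, Cd74, Rnf39, Sco2, Dusp14, Gadd45g, Tff3, Il23a, Crb3, Cry1 and Med27. Il1rn, the natural antagonist of the interleukin-1 receptor, had 34.25 FPKM in Vehicle, 6.58 with CLA, 10.56 with GW6471 and 36.73 with both, a ratio of 1.79 (counting interval 1.65 to 1.94). Cd74, the invariant chain of MHC class II, had 7.41, 3.52, 2.88 and 8.81 FPKM, a ratio of 1.58. Sco2, a copper chaperone of cytochrome c oxidase, had 26.49, 12.44, 14.31 and 32.65 FPKM, a ratio of 1.18. In Il1rn, Cd74 and Sco2 the GW6471 library was low beside CLA, and CLA+GW6471 was the highest of the 4.

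Dusp14, a phosphatase of MAP kinases, had 33.9 FPKM in Vehicle, 14.66 with CLA, 21.26 with GW6471 and 48.02 with both. Gadd45g, a stress-induced partner of MAP kinase kinase kinases, had 20.42, 11.53, 11.8 and 25.31 FPKM. Il23a, the p19 chain of interleukin-23, had 30.07, 11.32, 16.15 and 33.09 FPKM. Tff3, a secreted trefoil peptide of mucosal surfaces, departed from that order, with 59.8, 29.46, 19.2 and 39.46 FPKM and Vehicle as its highest library. Rnf39 (6.02 and 15.22 FPKM in GW6471 and CLA+GW6471), Crb3, a polarity protein (12.46 and 24.4), and Med27, a Mediator subunit (9.38 and 17.9), completed the group with Cry1.

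**Figure D2:**
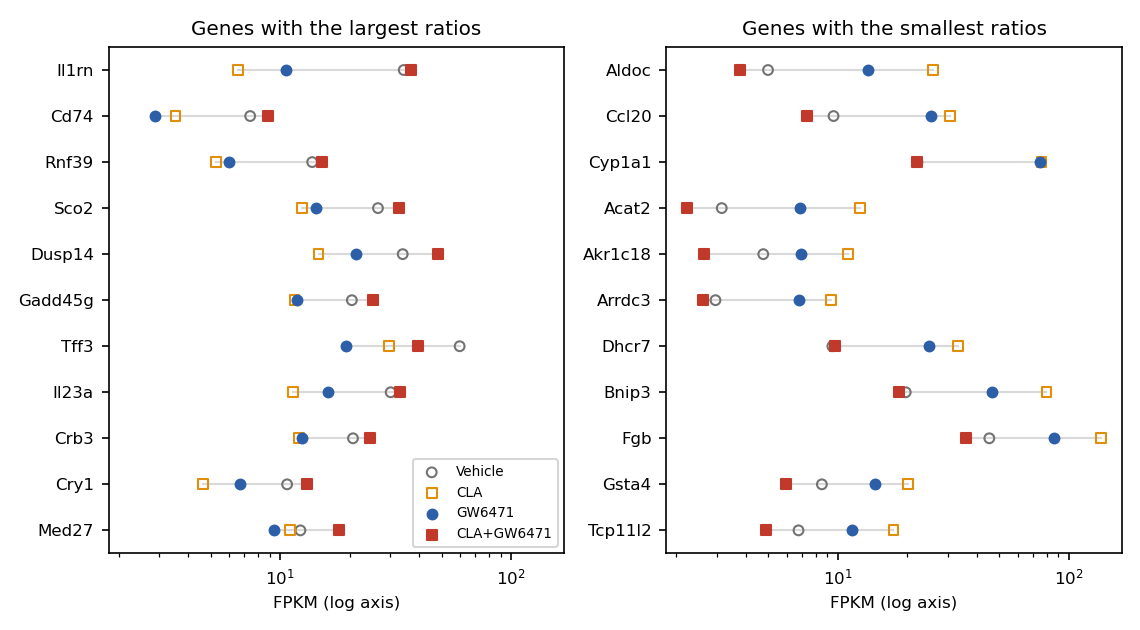
FPKM (log axis) in the 4 libraries of genes with the largest ratio (left) and with the smallest (right) at a mean FPKM of 5 or more; open symbols are Vehicle (circle) and CLA (square), filled symbols GW6471 (circle) and CLA+GW6471 (square). In most rows the CLA+GW6471 symbol lies beside or beyond Vehicle and the GW6471 symbol beside CLA, as for Cyp1a1 at 22.08 FPKM in Vehicle and CLA+GW6471.

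The order of the 4 libraries was counted over the whole gene sets. The CLA and Vehicle libraries took no part in the ratio, and the 2 contrasts share no library, but all 4 libraries entered the filter on the mean. Of the 83 genes at least 2-fold lower in CLA+GW6471 than in GW6471, 82 were higher in CLA than in Vehicle, against 48.9% of all genes, and the median ratio of CLA to Vehicle in the set was 1.31. CLA+GW6471 was the lowest of the 4 libraries in 73 of them, CLA the highest in 76 and GW6471 the highest in 7. Over all 10355 genes these counts were 2852, 3575 and 1952. Of the 37 genes at least 2-fold higher, 32 were lower in CLA than in Vehicle, against 50.9% of all genes, with a median of -0.91. Here CLA+GW6471 was the highest library in 27 and GW6471 the lowest in 23, against 2900 and 2115 over all genes. Both sets were chosen by the ratio of CLA+GW6471 to GW6471, which itself favours these libraries as the highest or lowest. Their places are therefore no separate finding.

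Across all 10355 genes the ratio of CLA+GW6471 to GW6471 and the ratio of CLA to Vehicle had opposite signs in 7558 (73.0%), with a Spearman correlation of -0.67 across genes, which share the libraries and are not independent. The SD of the log2 ratios across genes was 0.199 for CLA+GW6471 against Vehicle and 0.271 for GW6471 against CLA, smaller than the 0.329 of CLA+GW6471 against GW6471 and the 0.406 of CLA against Vehicle. As labelled, therefore, the libraries nearest to each other carried different diets as well as different injections. The labels were used as given.

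**Figure D3:**
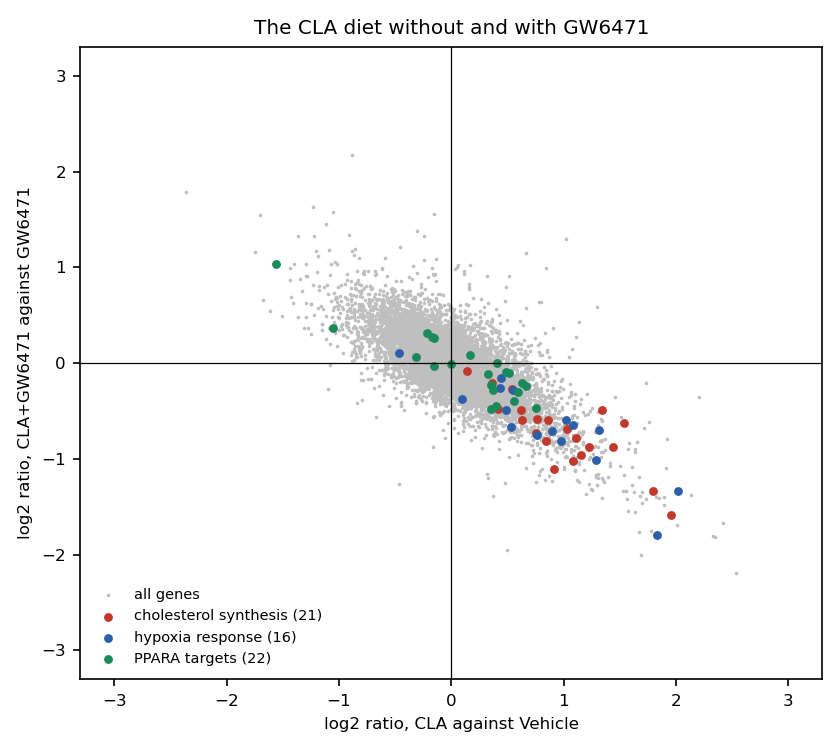
Log2 ratio of CLA to Vehicle (horizontal) and of CLA+GW6471 to GW6471 (vertical) for the 10355 genes (grey; 2 genes lie outside the axes), with the genes of cholesterol synthesis (red), the hypoxia response (blue) and PPARα targets (green). All 21 cholesterol synthesis genes lie at the lower right, higher with CLA alone and lower with CLA in the presence of GW6471.

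Genes of cholesterol synthesis were lower together. All 21 that passed the filter had a negative ratio, 14 were at least 1.5-fold lower and 4 at least 2-fold lower (Acat2, Dhcr7, Cyp51 and Hmgcs1), and the median was -0.69 against 0.0041 over all genes. Of the 20 with a counting interval, 18 had one wholly below 0, as did 2959 of all 9762 genes with a length. Over all genes, 3.88% were at least 1.5-fold lower, 2.81% at least 1.5-fold higher and 0.802% at least 2-fold lower. The counts of every list that follows stand beside these same shares. Set against Vehicle, CLA alone gave the cholesterol synthesis list a median of 0.92, and all 21 genes were higher. Their summed level was 561.89 FPKM in Vehicle, 1029.54 with CLA, 849.69 with GW6471 and 528.72 with both, so the CLA+GW6471 library was the lowest of the 4.

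Hmgcs1, which joins acetyl-CoA units to HMG-CoA at the start of the pathway, had 26.76 FPKM in Vehicle, 56.68 with CLA, 46.88 with GW6471 and 23.0 with both. Acat2, the cytosolic thiolase that supplies acetoacetyl-CoA, had 3.14, 12.44, 6.88 and 2.22 FPKM, a ratio of -1.59 (counting interval -1.98 to -1.30). The enzymes at the entry to the pathway were thus lower in CLA+GW6471 to different degrees.

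Late steps moved the same way. Dhcr7, the last reductase before cholesterol, had 9.46 FPKM in Vehicle, 33.11 with CLA, 24.81 with GW6471 and 9.74 with both, a ratio of -1.34. Cyp51, lanosterol demethylase, had 23.4, 44.32, 42.03 and 19.45 FPKM, a ratio of -1.11. The ratios closest to 0 in the list were those of Ggps1 (-0.09), Mvk (-0.21) and Ebp (-0.27), and the counting intervals of Ggps1 and Mvk held 0. Ggps1 makes geranylgeranyl diphosphate, which leads away from sterols.

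Genes of sterol uptake and of SREBP control had a median of -0.24 over 12 genes, with 2 at least 1.5-fold lower and none 1.5-fold higher. Over all 16 listed genes, with no filter, the median was -0.02. Stard4, which carries cholesterol between membranes, had 7.15 FPKM in Vehicle, 15.81 with CLA, 13.46 with GW6471 and 6.52 with both, a ratio of -1.03. Insig1, the sterol-regulated anchor that holds SREBP in the endoplasmic reticulum, had 8.29, 17.66, 15.51 and 7.85 FPKM, a ratio of -0.97. The transporters Abca1 and Npc1, which move cholesterol out of cells and lysosomes, had ratios of 0.22 and 0.20.

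De novo lipogenesis had a median of -0.46 over 17 genes, with 15 lower, 5 of them at least 1.5-fold, and 1 at least 1.5-fold higher. Fads2, the delta-6 desaturase that makes long polyunsaturated fatty acids, had 31.46 FPKM in Vehicle, 83.97 with CLA, 72.56 with GW6471 and 35.1 with both, a ratio of -1.05. Scd2, a stearoyl-CoA desaturase, had 201.8, 385.81, 366.29 and 197.4 FPKM, a ratio of -0.89. Gpam, which begins glycerolipid synthesis, had 6.86, 14.3, 11.43 and 6.47 FPKM, a ratio of -0.81. Fasn, fatty acid synthase, was at -0.59, Srebf1 at -0.17, and the 2 higher genes were Dgat2, the last enzyme of triglyceride synthesis, at 0.74 (1.93 and 3.28 FPKM) and Agpat2 at 0.22 (13.3 and 15.48).

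Promoters were read because the genes of these lists moved together. RefSeq promoter windows of 250 bases before and 50 after the start (GRCm38.p6, not the mm9 build of the deposited table) were found for 8414 of the 10355 genes. The letters TCACNCCAC, a form of the sterol regulatory element, stood on either strand in the windows of 1.4% of these genes, of 1 of 16 genes of cholesterol synthesis (Hmgcs1) and of 6 of 62 genes at least 2-fold lower (Aldoc, Echdc1, Gstm6, Gstm7, Hmgcs1 and Rab3a). The Hmgcs1 window is shown because it held the only match among the 16 of the pathway, with the matched letters in capitals:
Hmgcs1, chr13:119690101-119690400, plus strand: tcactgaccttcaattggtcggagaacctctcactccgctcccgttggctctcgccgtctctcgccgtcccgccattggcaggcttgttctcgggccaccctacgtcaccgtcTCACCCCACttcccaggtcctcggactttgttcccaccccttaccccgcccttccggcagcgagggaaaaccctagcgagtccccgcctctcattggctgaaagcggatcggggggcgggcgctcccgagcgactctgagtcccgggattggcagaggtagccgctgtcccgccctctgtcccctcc
No lipogenesis gene of 12 and no sterol uptake gene of 7 with a window held these letters. A match is a run of letters and no evidence of binding.

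Genes of the hypoxia response came next, with a median of -0.66 over 16 genes, 15 of them lower, 10 at least 1.5-fold lower and none 1.5-fold higher. Without GW6471, CLA against Vehicle gave them a median of 0.83. Bnip3, a receptor that marks mitochondria for removal, had 19.65 FPKM in Vehicle, 79.94 with CLA, 46.56 with GW6471 and 18.42 with both, a ratio of -1.33 (counting interval -1.48 to -1.20). Pdk1, which turns off pyruvate dehydrogenase, had 6.31, 15.59, 10.41 and 5.12 FPKM, a ratio of -1.01. Ankrd37, a small ankyrin protein, had 1.25, 4.69, 3.17 and 0.84 FPKM, a ratio of -1.80 at a low level. Hif1a itself, the oxygen-controlled subunit, had 81.83 FPKM in GW6471 and 51.33 in CLA+GW6471, and Ndrg1 alone was higher, at 0.11.

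Glycolysis had a median of -0.30 over 18 genes, with 15 lower, 5 at least 1.5-fold lower and 1 at least 1.5-fold higher. Beside Aldoc, Pfkl, the liver phosphofructokinase, had 20.14 FPKM in Vehicle, 51.61 with CLA, 38.8 with GW6471 and 20.33 with both, a ratio of -0.93. Gpi1, glucose phosphate isomerase, had 142.89, 269.79, 226.38 and 134.41 FPKM, a ratio of -0.75. Abundant enzymes moved less, as Gapdh at -0.20 (4418.33 and 3833.34 FPKM) and Ldha at -0.25, while Pfkfb3 and Eno2 had ratios of 0.59 and 0.50.

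The letters ACGTG, the core of the hypoxia response element, stood on either strand in the windows of 30.4% of all genes, of 11 of 13 hypoxia genes and of 12 of 18 glycolysis genes. Hypoxia genes are often listed because of this element, so the first of these shares is no finding about the contrast. In the 62 genes at least 2-fold lower it was 25.8% and in the 29 at least 2-fold higher 27.6%. The windows of Bnip3, Ankrd37 and Aldoc, the lowest members with a match, are shown with the matches in capitals:
Bnip3, chr7:138909457-138909756, minus strand: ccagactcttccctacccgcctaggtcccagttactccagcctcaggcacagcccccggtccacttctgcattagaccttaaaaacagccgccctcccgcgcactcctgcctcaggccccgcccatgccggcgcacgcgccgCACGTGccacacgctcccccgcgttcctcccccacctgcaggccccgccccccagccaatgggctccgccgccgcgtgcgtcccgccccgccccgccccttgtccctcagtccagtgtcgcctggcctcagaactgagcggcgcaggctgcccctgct
Ankrd37, chr8:45999801-46000100, minus strand: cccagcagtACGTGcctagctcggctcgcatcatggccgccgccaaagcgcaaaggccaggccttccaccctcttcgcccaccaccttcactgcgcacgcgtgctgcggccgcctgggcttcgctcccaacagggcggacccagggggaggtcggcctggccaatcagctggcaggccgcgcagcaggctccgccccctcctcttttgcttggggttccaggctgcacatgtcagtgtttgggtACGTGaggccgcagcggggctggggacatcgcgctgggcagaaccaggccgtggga
Aldoc, chr11:78322823-78323122, plus strand: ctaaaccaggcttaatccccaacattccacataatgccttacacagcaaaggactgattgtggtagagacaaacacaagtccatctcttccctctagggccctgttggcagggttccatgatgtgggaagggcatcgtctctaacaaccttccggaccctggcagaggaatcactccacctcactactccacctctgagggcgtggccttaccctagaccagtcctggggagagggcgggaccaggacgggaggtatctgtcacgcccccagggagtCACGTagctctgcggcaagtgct
In Bnip3 the letters on both strands overlap in 1 palindrome that begins 108 bases before the start. In Ankrd37 the matches begin 241 and 6 bases before the start, and in Aldoc the match begins 27 bases after it.

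PPARα targets, the genes GW6471 is meant to act on, differed by less than 1.5-fold between the compared libraries in all but 1 case. Of 22 that passed the filter, 8 were higher and 14 lower, with a median of -0.10. None was at least 1.5-fold lower and 1 was at least 1.5-fold higher, against 3.88% and 2.81% of all genes. The counting interval left out equal levels on the higher side for 5 of the 22 and on the lower side for 11, against 59.3% of all genes with a length on either side. Pdk4 had a ratio of -0.21 and Cpt1a one of -0.09. Angptl4, the lipase inhibitor that fatty acids induce, had 11.47 FPKM in Vehicle, 10.15 with CLA, 26.76 with GW6471 and 32.39 with both, a ratio of 0.27. Decr1, a reductase of unsaturated fatty acid oxidation, was lowest at -0.48 (12.08 and 8.66 FPKM), followed by Acot1 at -0.47. In CLA against Vehicle, where no GW6471 was given, the same list had a median of 0.35 and 15 genes were higher.

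Lipid droplet genes had a median of 0.27 over 10 genes (0.07 with no filter), with 2 at least 1.5-fold higher and 2 at least 1.5-fold lower. Cidec, the droplet fusion protein and also a PPARα target, had 5.19 FPKM in Vehicle, 1.69 with CLA, 2.32 with GW6471 and 4.85 with both, a ratio of 1.03. Plin2, the main coat protein of hepatic droplets, had 211.71, 181.74, 318.4 and 395.74 FPKM, a ratio of 0.31. G0s2, an inhibitor of the lipase ATGL, had a ratio of -0.77 (17.61 and 10.27 FPKM), and Lipe, hormone-sensitive lipase, one of -0.63 (8.95 and 5.76). Plin3, another coat protein, was at -0.17, so 7 of the 10 genes were higher and 3 lower.

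Mitochondrial beta-oxidation had a median of -0.23 over 18 genes, 14 of them lower and 2 at least 1.5-fold lower. Hadh, the short-chain hydroxyacyl-CoA dehydrogenase, had 30.14 FPKM in Vehicle, 61.47 with CLA, 54.71 with GW6471 and 32.33 with both, a ratio of -0.76. Acaa2, the mitochondrial thiolase, had 19.93, 34.59, 41.54 and 27.13 FPKM, a ratio of -0.61, and Eci2, an enoyl-CoA isomerase, was at -0.55. Peroxisomal lipid enzymes had a median of -0.20 over 18 genes, 14 of them lower. Abcd2, the peroxisomal importer of very long-chain acyl-CoA, stood far from the rest of that list with 1.53, 8.61, 4.81 and 1.44 FPKM, a ratio of -1.67. Ech1 and Crot, enzymes of dienoyl-CoA isomerization and of carnitine transfer, were at -0.62 and -0.57.

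Gluconeogenesis and glycogen genes had a median of -0.39 over 11 genes, with 10 lower and 4 at least 1.5-fold lower. Pck2, the mitochondrial PEP carboxykinase, had 27.84 FPKM in Vehicle, 46.45 with CLA, 37.72 with GW6471 and 19.57 with both, a ratio of -0.94. Pgm2 as listed, Pgm1 in RefSeq, a phosphoglucomutase, was at -0.76, and Ugp2, which makes UDP-glucose, at -0.73.

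Genes of detoxification were lower as well. NRF2 and glutathione genes had a median of -0.43 over 21 genes, with 20 lower, 6 at least 1.5-fold lower and 1 at least 1.5-fold higher. Slc7a11, the cystine importer that feeds glutathione synthesis, had 28.08 FPKM in Vehicle, 44.62 with CLA, 52.65 with GW6471 and 24.51 with both, a ratio of -1.10. Gclc, the rate-limiting glutamate-cysteine ligase, was at -0.82 (19.67 and 11.13 FPKM), and Gsta3 at -1.35, a glutathione transferase of a family with near-identical members. Osgin1 was the exception at 0.71 (73.51 and 120.15 FPKM). The letters TGACNNNGC, the core of the antioxidant response element, stood in 9 of the 16 windows of this list, against 17.2% of all genes and 14.5% of the genes at least 2-fold lower. NRF2 genes, too, are often listed for carrying this element, so its share in the list is no finding about the contrast.

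The aryl hydrocarbon receptor battery had a median of -0.62, with all 5 genes lower and 3 at least 1.5-fold lower, but -0.37 with a pseudocount of 1 and -0.21 with no filter on low values. After Cyp1a1, Ahr, the receptor itself, had 20.92 FPKM in Vehicle, 36.13 with CLA, 30.65 with GW6471 and 15.94 with both, a ratio of -0.94. Nqo1, a quinone reductase that NRF2 also controls, was at -0.62 with a counting interval that held 0. The letters GCGTG of the receptor's element stood in 57.9% of all windows and in 3 of 4 of this list, too common to set the list apart. Cytochrome P450 genes outside family 1 had a median of -0.39 (-0.15 at a mean FPKM of at least 5), and all 8 that passed were lower, led by Cyp39a1 (-0.83), Cyp2d22 (-0.79) and Cyp7b1 (-0.49), of which Cyp39a1 and Cyp7b1 hydroxylate oxysterols.

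Most endoplasmic reticulum chaperones were lower, and the other stress lists were mixed. ATF4 and amino acid stress genes had a median of -0.15 over 23 genes, with Slc7a11 and Chac1, a glutathione-degrading enzyme (-0.72), below, and Nupr1, a stress-induced nuclear protein, above at 0.76 (151.27 and 255.93 FPKM). Endoplasmic reticulum chaperones had a median of -0.20 with 17 of 19 lower, led by the disulfide isomerases Pdia4 (-0.61) and Pdia3 (-0.48) and by Hsp90b1 (-0.48). Cytosolic heat shock proteins had a median of -0.02, from Hsp90ab1 at -0.40 and Hspa8 at -0.23 to Hspe1 at 0.22. p53 targets had a median of 0.06, with Sesn1 at -0.80, Aen at 0.57 and Cdkn1a, the cell cycle inhibitor p21, at 0.51 (279.66 and 398.43 FPKM).

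AP-1 and immediate early genes had a median of -0.08 over 20 genes, among which Fos was lowest at -0.70 (10.49 and 6.41 FPKM) and Fosl1 and Myc were highest at 0.59 and 0.55. Myc, the growth regulator, had 386.83 FPKM in Vehicle, 203.56 with CLA, 279.68 with GW6471 and 408.62 with both. EGF receptor family genes and ligands had a median of -0.0005 over 8 genes, and Areg, the EGF-like ligand amphiregulin, had 411.34, 144.84, 288.76 and 405.62 FPKM, a ratio of 0.49. Errfi1, an inhibitor of the receptor, was at -0.29 and Erbb2 at 0.20. Both Myc and Areg stood in CLA+GW6471 near their Vehicle level.

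Chemokines and NF-kB targets had a median of 0.19 over 20 genes, with 4 at least 1.5-fold higher and 1 lower. Besides Il1rn and Il23a, Ccl2, the monocyte chemokine, was higher at 0.80 (20.91 and 36.46 FPKM), and so was Cxcl16 at 0.66 (36.66 and 58.16). Of the 6 genes with a negative ratio, Ccl20 alone was at least 1.5-fold lower, at 3.39-fold. Antigen presentation genes had a median of -0.20 over 10 genes (-0.04 with no filter), with the class II genes split, since Cd74 and H2-Eb1 (0.83) were higher and H2-Ab1 (-0.98, at 1.77 and 0.85 FPKM) lower. Interferon-stimulated genes had a median of -0.15, with Psmb9 (-0.62), Psmb8 (-0.32) and Stat2 (-0.30) as their largest differences.

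TGF-beta targets had a median of -0.27 over 14 genes, with 11 lower and 3 at least 1.5-fold lower. Thbs1, the matrix protein thrombospondin-1, had 117.79 FPKM in Vehicle, 225.73 with CLA, 173.49 with GW6471 and 91.36 with both, a ratio of -0.92. Id2, an inhibitor of helix-loop-helix factors, had 117.45, 238.42, 203.52 and 109.59 FPKM, a ratio of -0.89, and Tgfbi was at -1.40 (4.71 and 1.72 FPKM). Collagens, laminins and other matrix genes had a median of -0.18 over 20 genes, 17 of them lower, from Col6a1 at -0.57 and Timp3 at -0.37 to Mmp13, a collagenase, at 0.41 (754.68 and 1006.15 FPKM). Of 5 small proline-rich and barrier genes that passed, 4 were higher, with a median of 0.47, which is also the ratio of Sprr1a. This median was 0.16 with no filter, 0.71 at a mean FPKM of at least 5 and 0.30 with length and GC class medians removed. Sprr1b was at 0.71 and Ivl, involucrin, at -0.75.

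Clock genes were of interest because the study asks how CLA acts on the hepatic clock through PPARα and REV-ERBα. For its main experiment the paper sampled at a fixed time of day. With 1 library per condition, a changed level and a shifted daily phase of a clock gene cannot be told apart. The activators with REV-ERB and ROR genes had a median of -0.01 over 6 genes, none of them at 1.5-fold. This median was 0.11 at a mean FPKM of at least 5 and 0.07 with length and GC class medians removed. Nr1d1, which encodes REV-ERBα, had 17.97 FPKM in Vehicle, 22.83 with CLA, 22.71 with GW6471 and 23.29 with both, a ratio of 0.04 with a counting interval of -0.08 to 0.15. Arntl, which encodes the activator BMAL1, had 19.83, 11.59, 17.12 and 21.01 FPKM, a ratio of 0.29, and its partner Clock was at 0.18. Nr1d2, which encodes REV-ERBβ, was at -0.47.

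Clock repressors and kinases had a median of -0.13 over 8 genes. Cry1, a repressor of CLOCK and BMAL1, had 10.71 FPKM in Vehicle, 4.63 with CLA, 6.71 with GW6471 and 13.05 with both, a ratio of 0.95 (counting interval 0.78 to 1.14), and alone in the list reached 1.5-fold. Cry2 was at -0.40 and Fbxl21, a ligase for cryptochromes, at -0.51 with about 1 FPKM. The clock output genes had a median of -0.14 over 5 genes (-0.24 with length and GC class medians removed). Dbp, a bZIP factor that the clock drives, had 0.77, 3.18, 1.87 and 0.82 FPKM, a ratio of -1.10 at a low level, Bhlhe40 was at -0.69 (87.07 and 54.11) and Wee1 at 0.15.

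Ribosomal proteins were higher in most members by a small shift, and other large complexes were closer to even. Of 79 cytosolic ribosomal protein genes 73 were higher, with a median of 0.14 and 2 at least 1.5-fold higher, Rpl34 (0.65) and Rps28 (0.62), next to Rps27l at 0.39. Reads of these genes can be shared with their many processed copies, so single values are uncertain. Of 36 mitochondrial ribosomal protein genes 32 were higher, with a median of 0.22, led by Mrpl20 (0.53), Mrpl16 (0.47) and Mrps12 (0.44). Nuclear-encoded complexes III, IV and ATP synthase had a median of 0.11, with Atp5g3 and Atp5o at 0.40 and Cox5b at 0.33. For complex I the median was 0.03 (22 higher and 15 lower), with Ndufb7 at 0.36, Ndufa3 at 0.33 and Ndufv2 at -0.33. The tricarboxylic acid cycle had a median of -0.01 (9 higher and 9 lower), from Sucla2 at -0.37 and Idh2 at -0.35 to Ogdh at 0.24.

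The proteasome had a median of 0.03, with Psmc5 at 0.41, Psma7 at -0.40 and Psmb1 at -0.36. Cell cycle and mitosis genes had a median of 0.10 over 40 genes (0.03 with libraries scaled to a common FPKM sum and 0.05 at a mean FPKM of at least 5), with 2 at least 1.5-fold higher, Ccne2 (0.75) and Cdc6 (0.71), followed by the replication helicase gene Mcm3 (0.53). Histone genes had a median of 0.08 over 11 genes, with the largest ratios in Hist2h3c2 (2.95 and 5.99 FPKM), Hist2h2aa1 (0.42) and H3f3b (0.26), and near-identical copies make the first pair uncertain. Nuclear pore and transport genes had a median of -0.05 (Nup62 at 0.48, Xpo1 at -0.41, Ipo7 at -0.40), which became 0.10 with length and GC class medians removed. Splicing factors had a median of 0.03 (Tra2a at 0.48, Hnrnph1 at 0.41, Srsf7 at 0.30). None of these 5 lists had a gene at least 1.5-fold lower. The medians of complex I, the proteasome, the splicing factors and the p53 targets, all within 0.06 of 0, turned negative when the libraries were scaled to a common FPKM sum.

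**Figure D4:**
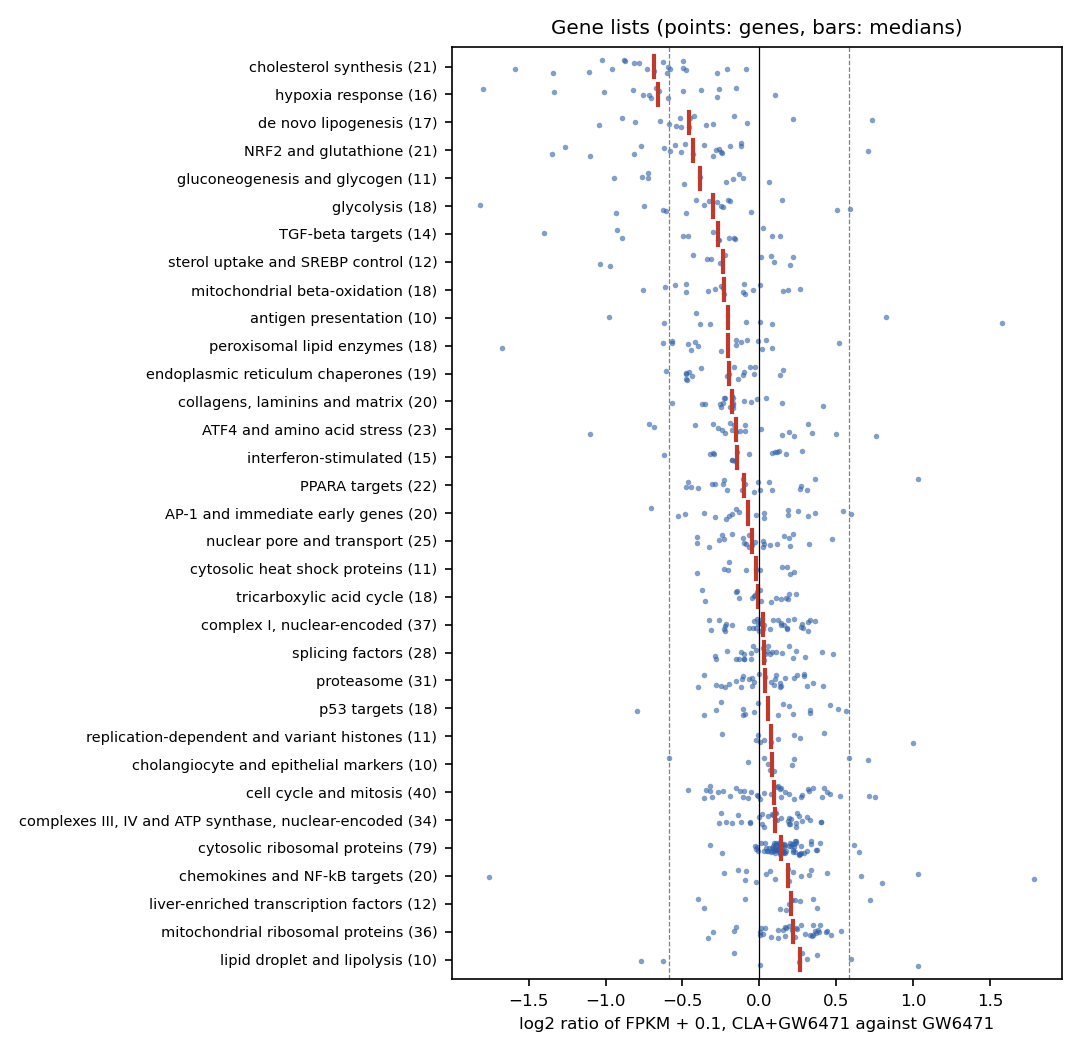
Log2 ratio of FPKM + 0.1 in CLA+GW6471 against GW6471 (horizontal) for the genes of each list with at least 10 genes past the filter, whose number stands in brackets; points are genes, red bars medians, and dashed lines mark 1.5-fold. Cholesterol synthesis (-0.69) and the hypoxia response (-0.66) have the lowest medians, and 73 of 79 cytosolic ribosomal protein genes lie above 0.

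The ratio also varied with transcript length. Across the 9762 genes with a length, Spearman's correlation with the ratio was -0.24 for length and 0.22 for GC content, over genes of the same libraries. The median ratio went from 0.13 in the shortest of 10 length classes, 259 to 1262 nt, to -0.13 in the longest, 6303 to 28204 nt. Genes of ribosomal proteins and of the respiratory chain are short, and the part of length in their shift was not tested by itself. With the medians of length and GC classes removed, a correction chosen after the data were seen, the median was 0.01 for cytosolic and 0.09 for mitochondrial ribosomal proteins, -0.09 for complex I and -0.01 for complexes III, IV and ATP synthase, whereas cholesterol synthesis stayed at -0.68 and the hypoxia response at -0.60.

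**Figure D5:**
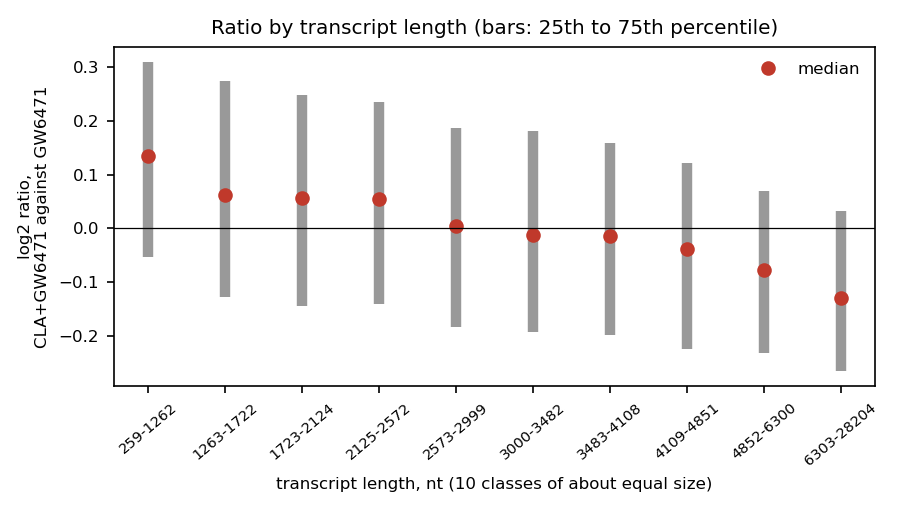
Median log2 ratio of CLA+GW6471 to GW6471 (points) in 10 classes of transcript length, with bars from the 25th to the 75th percentile of the genes of a class. The median goes from 0.13 in the shortest class to -0.13 in the longest, and the bars of neighbouring classes overlap.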

How the data were processed

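RNA from liver was sequenced in 4 libraries, 1 for each condition, with conditions taken from the sample labels. The authors mapped reads to mm9 with BWA and Bowtie and quantified genes with Cufflinks, per the labels and the paper's methods, without versions. They deposited FPKM with 2 decimals for 15500 genes; how the authors chose them is unknown from the sources used here. No unit stands in the header, and it was taken from a supplementary table whose 40 values, of 20 genes, equal the deposited ones. Such values are normalized to length and depth, so a rise in Sprr1a lowers the share left to other genes. Genes with no symbol (107) or with a date in its place (25) could not be named.

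The ratio was log2 of FPKM + 0.1, without further scaling. With 1 library per condition no test was made; lists were described by counts at 1.5-fold and 2-fold and by medians, beside all genes that passed the filter. Depth was estimated from the step between low values (0.02 to 0.5 in FPKM times length in kb) of 544 genes under 1000 nt with 1 transcript in GENCODE vM1, an annotation of the mm9 assembly, at 18800000 to 19280000 reads in the 4 libraries. The step score was 0.472 to 0.557, where 1 is a perfect step. Intervals used the longest coding transcript. The depth estimate, the 2-fold calls and the intervals were tried on simulated Poisson counts with exact transcript lengths, a simpler setting than the deposited values. The interval check there used a depth for CLA+GW6471 other than the simulated one. Promoters came from RefSeq by Entrez number.

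Named were the 12 genes with the largest and the 12 with the smallest ratio at a mean FPKM of at least 5, the 3 with the largest absolute ratio in each pathway or complex list, and the 3 most abundant and first 3 of each marker list. Other members named beside them, such as Gapdh or Nr1d1, were chosen with their values seen, and some genes covered by this rule are not reported here. The genes and the 49 lists were chosen with earlier results of these data known. The software was Python 3.11.15 with scipy 1.17.1, pandas 2.3.3, matplotlib 3.10.9 and numpy 2.4.6. Alternatives were a pseudocount of 0.01 or 1, other filters, 2 scalings and, added after the data were seen, removal of length and GC class medians.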

Additional observations from a re-analysis of the deposited data

Results flagged for a closer look

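In 6 lists with at least 10 genes and medians of at least 0.3 in size, the 2 contrasts of a CLA library with an LA library had medians of opposite sign. These lists were picked by a rule that asks for opposite signs. The difference was not tested, since each condition had 1 library. In CLA+GW6471 against GW6471 the median log2 ratio was -0.69 for cholesterol synthesis, -0.66 for the hypoxia response, -0.46 for de novo lipogenesis, -0.43 for NRF2 and glutathione genes, -0.39 for gluconeogenesis and glycogen genes and -0.30 for glycolysis. In CLA against Vehicle it was 0.92, 0.83, 0.59, 0.57, 0.63 and 0.53 for the same lists in the same order. The 2 contrasts had opposite signs in 73.0% of all 10355 genes and in all 21 genes of cholesterol synthesis. The NRF2 list shares Hmox1 with the hypoxia response and Me1 with de novo lipogenesis.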

How the results depend on the processing

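No paired analysis was possible because each condition had 1 library, and for the same reason no replicate could be left out. The count of genes at least 2-fold higher (37) and lower (83) depended on how low levels were treated: it was 13 and 31 with a pseudocount of 1, 233 and 234 with no filter, and 9 and 29 at a mean FPKM of at least 5. Removing the medians of length and GC classes, an alternative added after the data were seen, gave 24 higher and 79 lower genes. It also left out genes without a length, so it covered 9762 genes, with 32 of the 37 higher and 75 of the 83 lower ones. With a pseudocount of 0.01, with the filter on the compared libraries alone and under both scalings the counts stayed within 1.5 times, from 27 to 50 higher and from 74 to 101 lower. The 2-fold calls were 30.8% higher ones, and 21.1% with libraries scaled to a common FPKM sum, which shifted the median of all genes by -0.07. The median of the aryl hydrocarbon receptor battery went from -0.62 to -0.21 with no filter. The common sum moved several medians under 0.2 in size by over 1.5 times, among them PPARα targets (-0.10 to -0.17), cytosolic ribosomal proteins (0.14 to 0.08) and chemokines and NF-kB targets (0.19 to 0.12). List medians changed sign in 5 of 46 lists under the common sum, in 9 of 46 with length and GC class medians removed, in 2 of 44 at a mean FPKM of at least 5 and in 1 of 46 with no filter, and no list of these had a median over 0.11 in size. Depth limited genes near 1 FPKM most, and differences between animals were not measured at all.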
